A study of Homo sapiens with 22 samples.

Results

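The loci of 10 genes whose products mark neuroendocrine cells were examined in 22 deposited lists of genomic regions from 3 prostate cancer cell lines and their derivatives. The genes were CHGA, CHGB, SCG2, SCG3, SYP, ENO2, UCHL1, NCAM1, DLL3 and CEACAM5, grouped by what their products do and not by any value in the lists. A locus was the gene body with 50 kb on either side in the hg19 genome, and any region with at least 1 base in that window belonged to it. The 10 windows cover 1454 kb and hold 548 of the 871377 regions in all lists, around 10 of 20163 protein-coding genes.

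The regions came from chromatin immunoprecipitation with sequencing (ChIP-seq), which finds where a protein or histone mark sits on DNA, and from ATAC-seq, which finds accessible chromatin. LNCaP is a luminal prostate cancer line, PC3 is a line with basal or stem-cell-like features, and NCI-H660 cells come from a neuroendocrine tumour of the prostate. In PC3 cells, FOXA2 was profiled after vehicle, 10 µM ORY-1001 or 0.5 µM C12 for 4 h, JUN and FOSL1 after a control (siNC) or FOXA2 (siFOXA2) siRNA, and H3K27ac and ATAC after vehicle. A later set of PC3 FOXA2 samples added 2 lists labelled vehicle. In NCI-H660 cells, FOXA2 was profiled after vehicle or ORY-1001, JUN after siNC or siFOXA2, and H3K4me2 and ATAC after vehicle. In LNCaP cells JUN was profiled after siNC or FOXA1 (siFOXA1) siRNA. JUN was also profiled in LNCaP-FOXA2OE and LNCaP-FOXA2K265R cells, and FOXA2 in LNCaP-FOXA2OE cells. These derivatives are stable lines selected with puromycin after lentiviral transfer of FLAG-tagged wild-type FOXA2 or of FOXA2 with lysine 265 changed to arginine, and whether a line is 1 clone is not given in the sources used here. Every group has 1 list apart from the later PC3 FOXA2 group with 2, so no difference between groups could be tested, and no RNA measurement was used here.

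The granins CHGA, CHGB, SCG2 and SCG3 are acidic proteins of dense-core granules, the vesicles in which endocrine cells store hormones, and their cleavage also yields signalling peptides. SYP is a membrane protein of small vesicles. ENO2 is the neuronal form of the glycolytic enzyme enolase, and UCHL1 is a deubiquitinating enzyme abundant in neurons. NCAM1 (CD56) is an adhesion molecule of nerve cells, DLL3 is an inhibitory Notch ligand, and CEACAM5 is a carcinoembryonic antigen, and antibodies against DLL3 and CEACAM5 have been developed as carriers of therapy. FOXA2 is a forkhead pioneer factor that can bind closed chromatin. JUN and FOSL1 are subunits of AP-1 dimers, which bind a short palindrome. JUN can also pair with ATF factors at the cyclic AMP response element (CRE). ORY-1001 and C12 inhibit LSD1, a demethylase that removes methyl groups from histone H3 and from other proteins.

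The 8 sequences below are the regions to which the results refer most. They were read from the GRCh37 genome, forward strand, as up to 200 bases around the centre of the region, with transcribed untranslated bases left out. Capitals mark the motifs that were searched on both strands. The AP-1 motif was TGACTCA or TGAGTCA, which are the same site read from either strand, and the CRE motif was TGACGTNA. The forkhead motif was TNTTTNN in which the second base is A or G, the sixth A or G and the seventh C or T, so that several words fit it. The first 4 are the highest-scoring FOXA2 region at each locus with one in PC3 or NCI-H660 cells under vehicle:
CEACAM5 locus, FOXA2 region of NCI-H660 cells (chr19:42278554-42278753): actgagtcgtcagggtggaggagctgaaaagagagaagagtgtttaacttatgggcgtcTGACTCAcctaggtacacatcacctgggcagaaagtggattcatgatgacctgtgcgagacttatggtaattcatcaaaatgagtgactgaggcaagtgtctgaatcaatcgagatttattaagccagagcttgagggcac
SCG3 intron, FOXA2 region of NCI-H660 cells (chr15:52000369-52000568): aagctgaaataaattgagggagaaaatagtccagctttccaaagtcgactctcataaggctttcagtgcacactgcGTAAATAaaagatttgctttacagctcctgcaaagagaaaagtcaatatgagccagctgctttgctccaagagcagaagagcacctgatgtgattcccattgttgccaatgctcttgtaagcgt
NCAM1 locus, FOXA2 region of NCI-H660 cells (chr11:113188157-113188356): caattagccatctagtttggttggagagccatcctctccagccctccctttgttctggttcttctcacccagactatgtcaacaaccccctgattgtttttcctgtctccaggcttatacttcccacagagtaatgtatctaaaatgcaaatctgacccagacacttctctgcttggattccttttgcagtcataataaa
CHGB locus, FOXA2 region of PC3 cells (chr20:5953877-5954076): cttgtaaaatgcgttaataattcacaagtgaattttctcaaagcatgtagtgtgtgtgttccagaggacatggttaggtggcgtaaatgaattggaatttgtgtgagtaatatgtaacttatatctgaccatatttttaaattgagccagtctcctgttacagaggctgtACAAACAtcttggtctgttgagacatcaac
The other 4 are JUN regions. The promoters of the granins CHGA and SCG2 are shown for a CRE near the 5′ end, NCAM1 for a site at an internal start, and SCG2 for a place listed in both lines. These JUN sequences, and the CRE search, were chosen after the values were seen:
CHGA promoter, JUN region of NCI-H660 cells (chr14:93389399-93389494): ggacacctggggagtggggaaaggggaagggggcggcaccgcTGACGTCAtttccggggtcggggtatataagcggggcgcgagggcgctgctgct
SCG2 promoter, JUN region of NCI-H660 cells under siFOXA2 (chr2:224467080-224467221): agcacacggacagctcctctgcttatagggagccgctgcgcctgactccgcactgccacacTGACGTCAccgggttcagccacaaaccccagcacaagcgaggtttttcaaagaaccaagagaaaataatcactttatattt
NCAM1 internal start, JUN region of NCI-H660 cells (chr11:113130098-113130297): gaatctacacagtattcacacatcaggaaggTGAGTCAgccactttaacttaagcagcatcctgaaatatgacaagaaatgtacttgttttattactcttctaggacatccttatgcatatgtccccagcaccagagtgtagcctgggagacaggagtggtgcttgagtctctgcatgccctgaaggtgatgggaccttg
SCG2 locus, JUN region of PC3 cells (chr2:224428251-224428450): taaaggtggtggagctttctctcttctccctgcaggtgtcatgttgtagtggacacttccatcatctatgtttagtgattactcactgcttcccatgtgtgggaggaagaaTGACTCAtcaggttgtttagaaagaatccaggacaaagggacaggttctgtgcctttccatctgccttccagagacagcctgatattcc
The CRE word TGACGTCA lies 47 bases before the 5′ end of CHGA and 62 bases before that of SCG2. In the 250 bases before the 5′ end, 3 of 10 members and 2.83% of 20163 protein-coding genes held a CRE. The AP-1 motif was in 0 of 10 members there against 3.34% of all genes. The forkhead motif was in 2 of 10, ENO2 and NCAM1, against 19.5%. A motif match describes the letters in the window and does not show binding.

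The lists differ in motif content, which bears on their use below. In 200 bases around the region centre, the AP-1 motif was in 49.4% of PC3 JUN siNC regions and 3.26% of windows 2 kb away, and in 13.8% against 3.07% for NCI-H660 JUN siNC. The share was below that of the windows 2 kb away in the LNCaP-FOXA2OE JUN list (2.38% against 3.07%) and the PC3 FOSL1 siFOXA2 list (2.41% against 2.47%). It was above, by less than in the siNC lists, for JUN in LNCaP-FOXA2K265R (4.07% against 2.95%) and NCI-H660 siFOXA2 (4.98% against 2.99%). The forkhead share in these JUN lists was 6.36% against 31.2% in LNCaP-FOXA2OE, 10.3% against 33.9% in LNCaP-FOXA2K265R and 16.2% against 34.2% in NCI-H660 siFOXA2. The windows 2 kb away were not matched for base composition. The CRE share exceeded that of windows 2 kb away in the 3 JUN lists, with 2.16% against 0.415% in LNCaP-FOXA2OE, 1.55% against 0.354% in LNCaP-FOXA2K265R and 1.22% against 0.376% in NCI-H660 siFOXA2. In the FOSL1 list it was 0.325% against 0.618%. The forkhead motif was in 77.2% of PC3 and 75.8% of NCI-H660 FOXA2 regions under vehicle, but in 26.2% of the 2500 FOXA2 regions of LNCaP-FOXA2OE against 30.2% of windows 2 kb away. The lists run from 1538 to 210960 regions. Each region has a score, read here as 10 times −log10 of its q-value, and a percentile of that score within its list. A lowest score of 13, as in most lists, corresponds to q = 0.0501. The regions carry no read counts, so the depth behind them is unknown.

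Marker genes of each cell type were read beside the shares over all genes. FOXA2 regions lay within 50 kb of 3 of 4 neuroendocrine factor genes in NCI-H660 cells, against 37.6% of all protein-coding genes, and of 1 of 4 in PC3 cells, against 54.1%. For 5 basal or stem-cell-like marker genes the counts were 1 and 5. JUN siNC regions lay near 4 of the 4 neuroendocrine factor genes in NCI-H660 cells, against 66.2%, and near 1 in PC3 cells, against 62.8%. Of 5 luminal genes, 2 had a JUN region in LNCaP siNC cells, against 13.4%, 2 in PC3 cells and 0 in NCI-H660 cells. The 2 in LNCaP cells were KLK3 and KLK2. Each had 7 ATAC regions in NCI-H660 and 21 in PC3 cells, so their windows may share regions and count 1 place for both. Sets of 4 and 5 genes are too small to check the identity of a line from region lists.

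The plot of region numbers sets out the whole comparison. Factor-binding regions were few beside accessible and marked regions, and their distribution over the 10 genes differed between lines. Other protein-coding genes lie in every window except that of SCG2, and 10 lie in that of ENO2, so the gene a region lies in is given below. NCAM1, at 317 kb, has the longest gene body and a window of 417 kb. The shares given for all protein-coding genes use each gene's own length and are not matched to the members. Shares over a list cover its regions across the genome and are not matched for distance to genes.

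**Figure D1:**
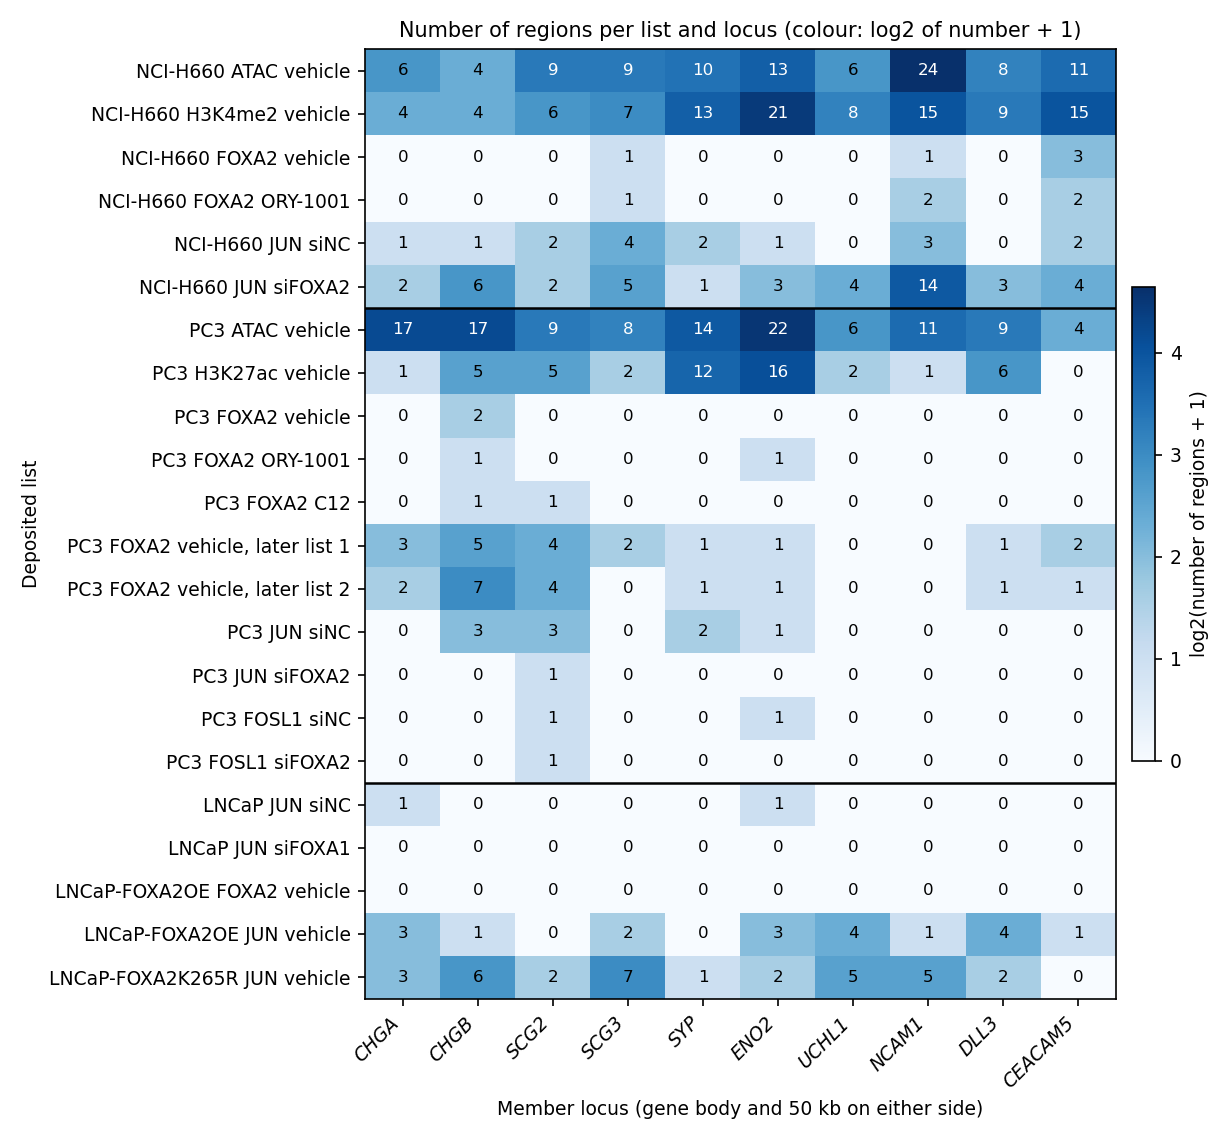
Number of regions within 50 kb of each member's gene body in each of the 22 deposited lists (colour: log2 of the number plus 1). NCAM1 had 24 ATAC regions in NCI-H660 cells and 11 in PC3 cells, and the PC3 FOXA2 vehicle list had regions at CHGB alone, 2 of them.

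In the vehicle lists, few FOXA2 regions lay near the secretory and surface genes, and those of NCI-H660 and PC3 cells were at different members. NCI-H660 cells under vehicle had 5 FOXA2 regions, 3 at CEACAM5, 1 at SCG3 and 1 at NCAM1. PC3 cells under vehicle had 2, both at CHGB. Neither list had a FOXA2 region at a member's promoter, taken as 1 kb on either side of an annotated start, against 3.25% of all promoters in NCI-H660 and 4.96% in PC3 cells. Shares of all promoters, here and below, count each of 19821 protein-coding genes once, by a region at any of its annotated starts. The number of starts differs between genes, and NCAM1 has 14.

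In NCI-H660 cells 3 of 10 members had a FOXA2 region, against 37.6% of all protein-coding genes. In PC3 cells 1 of 10 had one, against 54.1%. As a share of the list, 0.0421% of NCI-H660 FOXA2 regions lay at the loci (95% Wilson interval 0.018 to 0.0984) and 0.00832% of PC3 regions (0.00228 to 0.0303). All intervals here are of this kind and cover counting error only. The density at the loci was 3.44 regions per Mb in NCI-H660 cells against 3.84 over the genome, and 1.38 per Mb in PC3 cells against 7.77. The PC3 list was therefore thinner at these loci than over the genome, and the NCI-H660 list was close to its own genome-wide density.

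The CEACAM5 locus held the highest-scoring of these NCI-H660 regions, at chr19:42278487-42278820, with a score of 415 (percentile 89.2). It lies 66.1 kb from the CEACAM5 5′ end, in the intergenic stretch after CEACAM6, a related adhesion molecule, and its sequence above has an AP-1 word and no forkhead word. A second region (chr19:42238655-42238958, score 224) lay in an intron of the readthrough gene ENSG00000267881 and had both motifs. The third, at the CEACAM6 promoter (chr19:42254122-42254338), scored 78 (percentile 26.4). All 3 are nearer to CEACAM6 or lie in the readthrough gene, and none is in CEACAM5 itself.

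SCG3 was the one member with a FOXA2 region inside its gene body in the NCI-H660 vehicle list. This region, in an intron 26.8 kb from the 5′ end (chr15:52000327-52000610), scored 166 (percentile 59.2) and has the forkhead word capitalised above. The NCAM1 region (chr11:113188131-113188381) scored 225 (percentile 71.9), lies in an intron of the neighbouring gene TTC12, and holds neither motif in the 200 bases shown.

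In PC3 cells the stronger CHGB region (chr20:5953721-5954231) scored 261 (percentile 71.4). It lies 61.8 kb past the 5′ end, over a coding exon of MCM8, a gene of DNA replication and repair. The weaker one (chr20:5863158-5863437) lies between genes at -28.9 kb from the 5′ end and scored 64 (percentile 14.9). CHGB has the only FOXA2 regions among the 10 members in this list.

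The same places were compared across lines. None of the 5 FOXA2 regions of NCI-H660 cells was in the PC3 FOXA2 vehicle list, 0 against 22.5% over the whole NCI-H660 list, and the interval of this share reaches 43.4%. The later PC3 lists overlapped 2 and 1 of the 5. The CEACAM5-locus region at 66.1 kb was in both later lists, with scores of 243 and 187, and the SCG3 intron region was in the first of them at a score of 46 (percentile 9.2). FOXA2 regions at these places were thus listed in PC3 cells too, in the later lists. Those lists are longer, come from a later set of samples and carry no antibody label, and these differences cannot be told apart.

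The later PC3 lists held 77822 and 62714 regions, and at the member loci 19 and 17. They had a region at 8 of 10 and 7 of 10 members, against 86.5% and 82.9% of all protein-coding genes. CHGB had 5 and 7 regions in them, SCG2 had 4 in each, and UCHL1 and NCAM1 had none. The 14 regions of the first later list that also appeared in the second made up 73.7% of its regions at the loci, and 73.4% over that list. Promoters of members held no FOXA2 region here either, against 21.1% and 17.1% of all promoters in these lists. The number of FOXA2 regions in PC3 cells, and the members that had one, thus depended on the list.

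The FOXA2 list of LNCaP-FOXA2OE cells had 0 regions at the loci, and 6.03% of all protein-coding genes had one. A count of 0 of 2500 regions has an upper bound of 0.153%. The forkhead motif was no more frequent in that list than 2 kb away, and whether FOXA2 occupied these genes in that line was not tested.

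**Figure D2:**
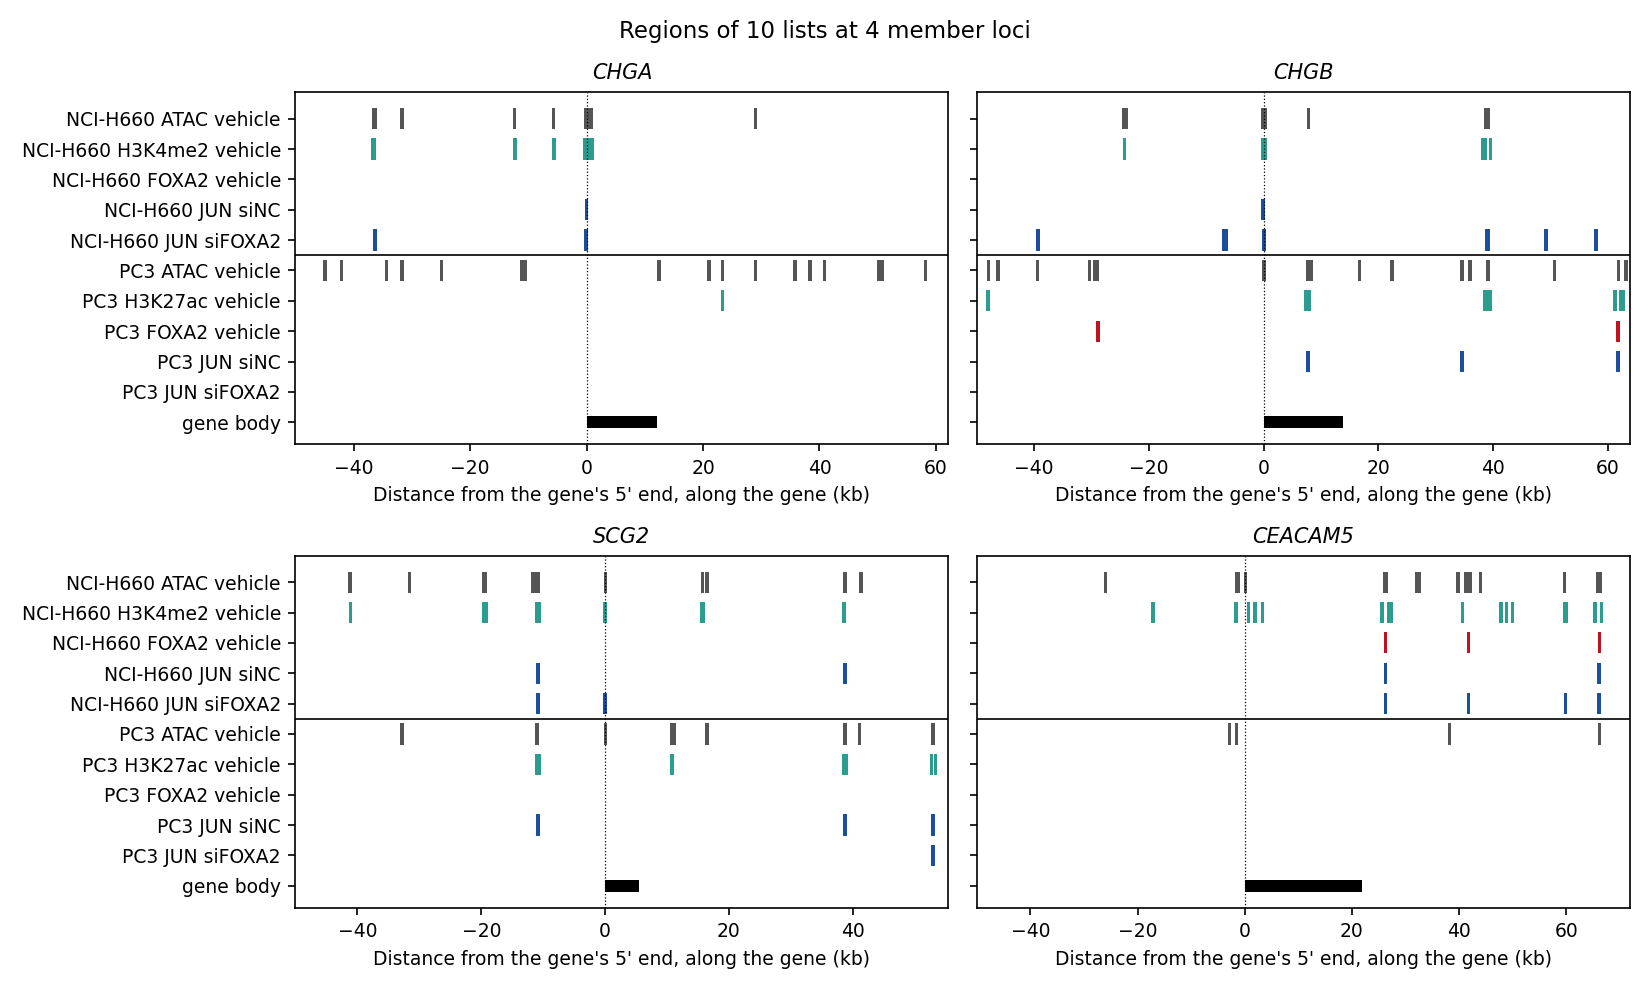
Positions of regions from 10 lists at CHGA, CHGB, SCG2 and CEACAM5, in kb from the gene's 5′ end along the gene, each bar being 1 region widened where needed to be seen, with NCI-H660 lists above the line and PC3 lists below it. JUN regions of NCI-H660 cells sit at the 5′ ends of CHGA and CHGB, and the 3 FOXA2 regions at the CEACAM5 locus lie 26.3, 41.7 and 66.1 kb from its 5′ end.

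JUN was listed at member promoters in NCI-H660 cells and not in PC3 cells. In NCI-H660 cells under siNC, JUN regions lay at 4 of 10 member promoters, those of CHGA, CHGB, SCG3 and NCAM1, against 22.7% of all promoters. In PC3 cells under siNC, 0 of 10 member promoters had one, against 10.7%. Granins account for 3 of the 4 promoters.

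Over the whole windows, NCI-H660 cells had 16 JUN regions at 8 of 10 members, against 66.2% of all genes, and PC3 cells had 9 at 4 of 10, against 62.8%. LNCaP siNC cells had 2 at 2 of 10, against 13.4%. The share of the list was 0.087% in NCI-H660 cells (0.0535 to 0.141), 0.0377% in PC3 cells (0.0198 to 0.0716) and 0.0826% in LNCaP cells (0.0227 to 0.301). These intervals overlap. NCI-H660 cells had more JUN regions at CHGA, SCG3, NCAM1 and CEACAM5, PC3 cells had more at CHGB and SCG2, and the numbers were equal at SYP, ENO2, UCHL1 and DLL3. UCHL1 and DLL3 had none in either line.

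The CHGA promoter region of NCI-H660 cells (chr14:93389293-93389703) scored 124, at percentile 64.9 of its list. It contains the CRE shown above and no AP-1 word in the central 200 bases. The CHGB promoter region scored 141, at percentile 68.6. The SCG3 promoter region scored 24, near the bottom of the list (percentile 7.17). The region at the internal NCAM1 start (chr11:113129956-113130438), 298.2 kb into the gene, scored 269 (percentile 83.9) and has an AP-1 word. It is an alternative start, and the 5′ end of the longest transcript had no JUN region in this list.

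The highest JUN scores at the NCI-H660 loci were away from member promoters. The CEACAM5-locus region after CEACAM6 scored 753 (percentile 96.5), the ENO2-locus region at the promoter of LRRC23 scored 714 (percentile 96.2), and the SCG3-locus region in a LYSMD2 intron scored 581 (percentile 94.5). The first of these is the FOXA2 place with the highest score. The top JUN region at NCAM1 was in an intron (score 335), that at SCG2 lay 10.9 kb before the 5′ end (212), and that at SYP was at the promoter of PRICKLE3 (64). Of the 16 regions 6 had an AP-1 motif and 3 a CRE, and over the whole list 13.8% and 4.46% did.

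In PC3 cells the SCG2 locus carried the JUN regions with the highest scores. They scored 327 (chr2:224428177-224428524), 264 (chr2:224413924-224414340) and 215 (chr2:224477732-224478097), and all 3 have an AP-1 motif. SCG2, with no other protein-coding gene in its window, is the locus where these places are least open to assignment to a neighbour. The PC3 JUN regions at SYP lay at the promoters of PLP2 (score 166) and PRICKLE3 (116), and the one at ENO2 in an intron of ATN1 (154). The top one at CHGB was in an intron of TRMT6 (156), and the region at chr20:5899618-5900234, score 96, was the one of the 3 that lay within CHGB. At the loci 5 of 9 PC3 JUN regions had an AP-1 motif, and 49.4% of the list did.

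Some JUN places were shared between the lines. They made up 3 of the 9 PC3 regions, against 12.8% of the PC3 list, and 3 of the 16 NCI-H660 regions, against 16.5% of the NCI-H660 list. The SCG2 place about 38.7 kb from the 5′ end, whose sequence is shown above, was in 10 of 22 lists. It was listed for JUN in both lines, FOSL1 under siNC, H3K27ac and ATAC in PC3 cells, H3K4me2 and ATAC in NCI-H660 cells, and FOXA2 in PC3 cells under C12 and in both later lists. It was absent from the PC3 FOXA2 vehicle list.

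In LNCaP siNC cells the 2 JUN regions were in an ITPK1 intron at the CHGA locus, with an AP-1 word, and at the LRRC23 promoter at the ENO2 locus, with a CRE. That list carries no scores. FOSL1 under siNC had 2 regions in PC3 cells, at SCG2 (score 55) and in an LRRC23 intron at ENO2 (score 111), so 2 of 10 members had one, against 17.4% of all genes.

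FOXA2 overlapped 3 of 16 JUN regions at the loci in NCI-H660 cells, and 1 to 5 of 9 in PC3 cells across the vehicle FOXA2 lists. Of the 16 NCI-H660 JUN regions 3 (18.8%, 6.59 to 43) overlapped a FOXA2 region, against 23.2% of the list, and they were the CEACAM5-locus regions at 26.3 and 66.1 kb and the TTC12 region at NCAM1. The 4 JUN regions at member promoters overlapped none. Of the 9 PC3 JUN regions 1, the MCM8 region at CHGB, overlapped FOXA2 (11.1%, 1.99 to 43.5), against 44.5% of the list. With 9 regions behind this interval and its upper bound close to the share over the list, no difference is read from it. The first later FOXA2 list overlapped 3 of the 9 (33.3%, 12.1 to 64.6), against 66.9% of the JUN list. The second overlapped 5 of the 9 (55.6%, 26.7 to 81.1), against 61.7%. The PC3 shares at the loci were the lower ones with each vehicle FOXA2 list, by a margin that depended on the list. With the second later list the interval included the share over the JUN list. The NCI-H660 interval included that of its list too.

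Accessible chromatin was listed at more member promoters in NCI-H660 than in PC3 cells. All 10 member promoters had an ATAC region in NCI-H660 cells, against 74.6% of all promoters, and 7 of 10 had one in PC3 cells, against 77.5%. The 3 without one in PC3 cells were CHGA, UCHL1 and CEACAM5. A promoter accessible in NCI-H660 and not in PC3 cells was seen for 3 of 10 members and for 4.91% of all promoters.

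At CHGA the NCI-H660 region spanned 1568 bp with a score of 555 (percentile 71.1). At UCHL1 it spanned 1768 bp with a score of 756 (percentile 79.7). At CEACAM5 the higher-scoring region spanned 908 bp, centred 1.4 kb before the 5′ end, with a score of 399 (percentile 61.2). The NCI-H660 region nearer the start, at 0.2 kb (chr19:42212536-42212780), scored 36 (percentile 4.78). CEACAM5 sits at the edge of the definition, since a PC3 region at chr19:42210697-42211103 overlaps the 908 bp NCI-H660 region but ends more than 1 kb before the start. In PC3 cells UCHL1 had a weak region in an intron 2.6 kb from the 5′ end, with a score of 39 (percentile 22), and the nearest PC3 region to the CHGA 5′ end was 10.6 kb before it.

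Within the PC3 list the promoter regions stood highest at SYP (score 1528, percentile 92.5), ENO2 (1310, 90.8), CHGB (986, 87.3) and SCG2 (759, 83.6), and that of DLL3 scored 233 (63.9). The NCI-H660 percentiles at the same 5 promoters were 60.7, 57.2, 78.7, 56.5 and 61.2. The remaining PC3 promoter regions stood lower than in NCI-H660 cells. That of SCG3 scored 121 (percentile 51.3) against 817 (81.7). That of NCAM1 was at 49.8 against 87, the latter at the internal start. The PC3 list is longer and holds more low scores, so its percentiles were also taken among its 99959 highest-scoring regions, as many as NCI-H660 has, a comparison added after the data were seen. They were then 84.2 at SYP, 80.6 at ENO2, 73.2 at CHGB, 65.4 at SCG2 and 23.8 at DLL3. The PC3 promoter regions of SCG3 and NCAM1 were not among those highest-scoring regions. SYP, ENO2 and SCG2 stood higher in PC3 cells on both scales, whereas CHGB and DLL3 stood higher in PC3 cells as deposited and lower at equal length. With 1 list a line, no test was made.

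The PC3 list has 210960 ATAC regions and the NCI-H660 list 99959. As deposited, 117 PC3 and 100 NCI-H660 regions lay at the loci, which is 0.0555% (0.0463 to 0.0665) and 0.1% (0.0823 to 0.122) of the lists. At least 1 region lay at 10 of 10 members in both lines, against 99.1% and 95.9% of all genes. More regions were listed in NCI-H660 than in PC3 cells at 3 members (SCG3, NCAM1 and CEACAM5), against 7.59% of all genes, and fewer at 5.

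The list lengths were then equalised, a comparison added after the data were seen. With the PC3 list cut to its 99959 highest-scoring regions, all of score 130 or more, 68 PC3 regions stood against the 100 of NCI-H660. NCAM1 alone held 2 of those in PC3 cells and 24 in NCI-H660 cells, so much of the gap in the totals lay at this locus. NCI-H660 cells then had more regions at 7 of 10 members (CHGA, SCG2, SCG3, UCHL1, NCAM1, DLL3 and CEACAM5), against 37.8% of all genes. SYP was equal, and CHGB and ENO2 had more in PC3 cells. The NCAM1 locus went from 11 PC3 regions to 2, and CHGA from 17 to 2, so most of their PC3 regions had low scores. In the cut list 5 of 10 member promoters had a PC3 region, against 68.6% of all promoters. They were CHGB, SCG2, SYP, ENO2 and DLL3.

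**Figure D3:**
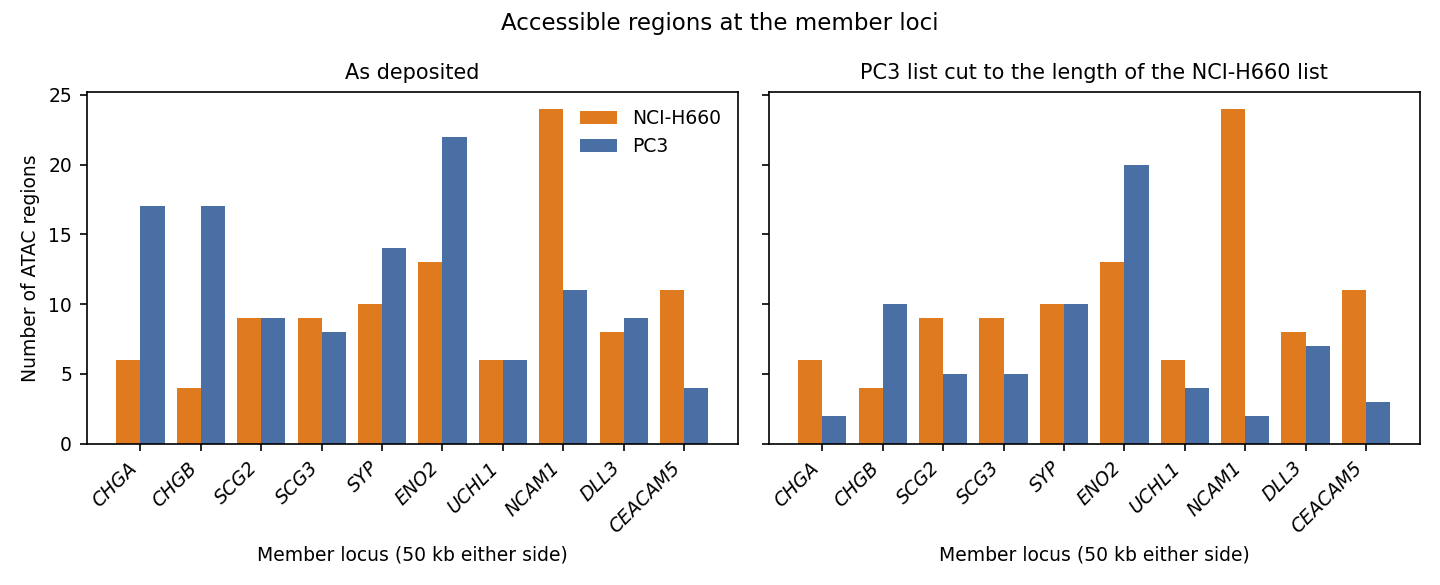
Number of ATAC regions within 50 kb of each member in NCI-H660 and PC3 cells, as deposited (left) and with the PC3 list cut to the 99959 regions of highest score (right), 1 list a line. At NCAM1 the NCI-H660 bar is 24 in both panels and the PC3 bar falls from 11 to 2.

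At NCAM1, the accessible NCI-H660 regions ran along the gene. The region at the 5′ end (chr11:112831886-112834592) spanned 2707 bp with a score of 622. The region at the internal start 298.3 kb in, where JUN was also listed, scored 1022 (percentile 87). In PC3 cells the 5′ end region scored 112 (percentile 49.8), and the high-scoring PC3 regions of this window were at TTC12 (score 2556) and between the genes (score 1585).

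Among the 100 NCI-H660 ATAC regions at the loci, 51 were also accessible in PC3 cells (51%, 41.3 to 60.6), against 41.2% of the list. Among the 117 of PC3 cells, 58 were also accessible in NCI-H660 cells (49.6%, 40.7 to 58.5), against 21.5%. All 16 NCI-H660 JUN regions, all 9 PC3 JUN regions, all 5 NCI-H660 FOXA2 regions and both PC3 FOXA2 vehicle regions lay in accessible chromatin of their line. Over the lists these shares were 86%, 96%, 90.9% and 89.3%. Of the 9 PC3 JUN regions 6 were also accessible in NCI-H660 cells (66.7%, 35.4 to 87.9), against 24.7% of the list. Neither of the 2 PC3 FOXA2 regions was (0%, 0 to 65.8), against 22.6% of the list. The list shares are not matched for distance to genes, so these differences are not a trait of the members.

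The histone marks were profiled in 1 line each, so line and mark cannot be told apart. H3K4me2, a mark of promoters and enhancers, was listed in NCI-H660 cells at all 10 promoters, against 74.5% of all promoters, with 102 regions at 10 of 10 members, against 94.7% of all genes. H3K27ac, a mark of active promoters and enhancers, was listed in PC3 cells at 3 of 10 promoters (SYP, ENO2 and DLL3), against 68%. It had 50 regions at 9 of 10 members, against 92.5%.

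ENO2 carried the strongest promoter H3K27ac region, with a score of 1440 (percentile 93.7). SYP had 291 (percentile 68.2), in a region just before the 5′ end, and DLL3 had 112 (percentile 43.4). CHGB and SCG2, accessible at their promoters in PC3 cells, had no H3K27ac region there. Their H3K27ac regions lay elsewhere, at SCG2 on the JUN place about 38.8 kb away (score 732, percentile 84.6), and at CHGB in an intron (score 414) and at the MCM8 and TRMT6 promoters (score 1134). At CEACAM5, PC3 cells had 0 H3K27ac regions in the window, and at CHGA the single one lay in ITPK1 (score 59).

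In NCI-H660 cells the H3K4me2 promoter percentiles were highest at CHGA (score 395, percentile 89.3), CHGB (381, 88.5) and ENO2 (378, 88.3), and lowest at SCG2 (111, 49.2) and CEACAM5 (51, 22.3). Of 16 JUN regions at the loci 11 overlapped H3K4me2, against 70.4% of the list. Of 5 FOXA2 regions 1 did (20%, 3.62 to 62.4), against 62.7%. With 5 regions behind that interval and its upper bound close to the share over the list, no difference is read from it. Of the 9 PC3 JUN regions 8 overlapped H3K27ac, against 77.3%.

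**Figure D4:**
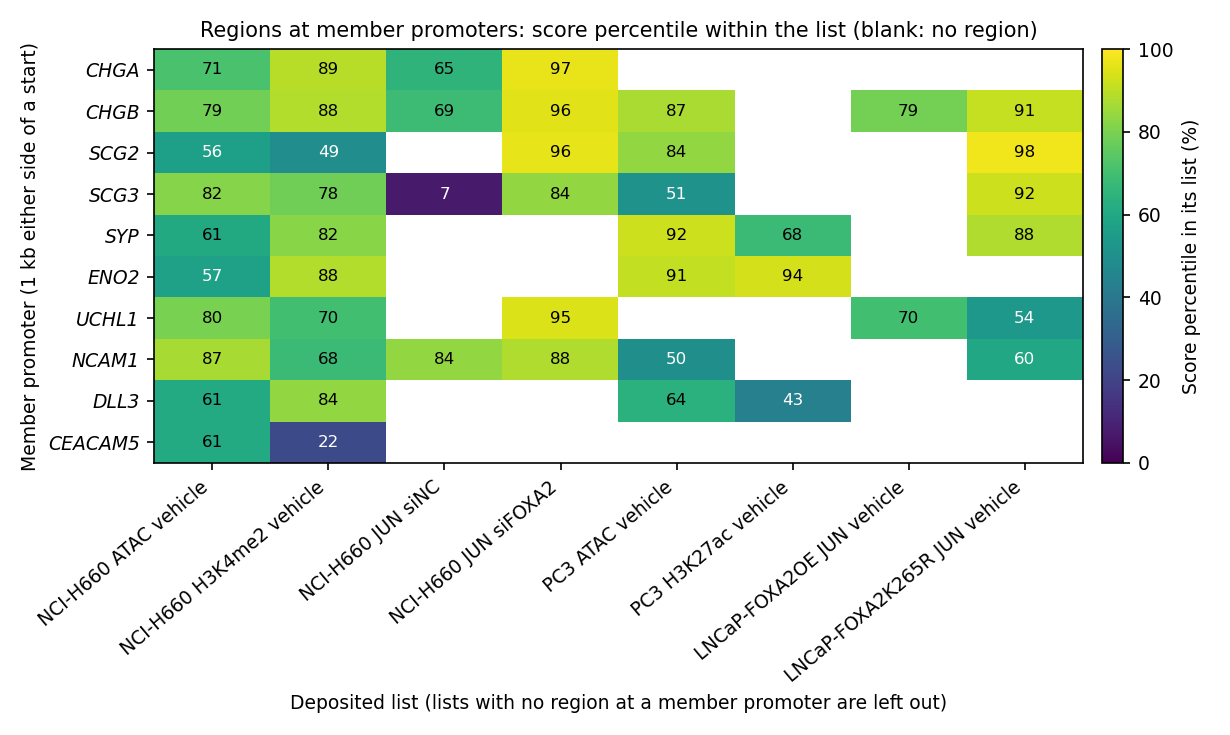
Score percentile, within its list, of the region at each member promoter (1 kb on either side of a start) for the 8 lists that have any, with blank cells where no region was listed. Lists differ in length, so a percentile ranks a region within its own column. The NCI-H660 ATAC and H3K4me2 columns are full, the PC3 ATAC column lacks CHGA, UCHL1 and CEACAM5, and no FOXA2 list has a column.

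The inhibitor lists asked what LSD1 inhibition does to FOXA2 binding. At these loci few FOXA2 regions were available to be lost. In NCI-H660 cells 4 of 5 were also in the ORY-1001 list (80%, 37.6 to 96.4), against 68.4% of the list, so 1 was lost, against 31.6%. In PC3 cells 1 of 2 was also in the ORY-1001 list (50%, 9.45 to 90.5), against a loss of 63.2% over the list, and 1 of 2 in the C12 list, against a loss of 70.4%. ORY-1001 and C12 were used at different doses and are not compared with each other.

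In NCI-H660 cells the SCG3 intron region scored 166 under vehicle and 219 under ORY-1001. The TTC12 region at NCAM1 scored 225 and 201, the region of the readthrough gene at CEACAM5 224 and 220, and the region after CEACAM6 415 and 301. Of the 4 scores 1 was higher under ORY-1001 and 3 were lower, and without a replicate the spread is unknown. The region at the CEACAM6 promoter was in the vehicle list only. A new region appeared after the end of NCAM1 at a score of 29 (percentile 6.17). The ORY-1001 list had a region at 3 of 10 members, against 35.5% of all genes.

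In PC3 cells the MCM8 region at CHGB was kept under both compounds, with a score of 261 under vehicle, 75 under ORY-1001 and 81 under C12, and percentiles of 71.4, 43.6 and 34.9 in lists of 24038, 13732 and 8352 regions. In lists cut to one length, its vehicle percentile was 50 against 43.6 under ORY-1001 and 17.7 against 34.9 under C12, so no direction is drawn from these. The weaker CHGB region was in neither inhibitor list. The new regions were one by LRRC23 at ENO2 under ORY-1001 (score 25) and the shared SCG2 place under C12 (score 90, percentile 39.4). Each inhibitor list had a region at 2 of 10 members, against 38.9% of all genes for ORY-1001 and 28.7% for C12. The same MCM8 region scored 716 and 601 in the later vehicle lists, which carry no antibody label. The score of 1 place thus ranged widely between lists labelled vehicle, and the cause was not tested.

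The siRNA lists asked what FOXA2 depletion does to AP-1 binding. At these loci the JUN lists of the lines went opposite ways in number. PC3 cells had 9 JUN regions under siNC and 1 under siFOXA2, and NCI-H660 cells had 16 and 44. The lists as a whole did the same, from 23890 to 4081 regions in PC3 cells and from 18401 to 59452 in NCI-H660 cells.

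In PC3 cells 1 of 9 JUN regions was kept (11.1%, 1.99 to 43.5), and the loss was 86.6% over the list. The region kept was the SCG2 one at chr2:224413924-224414340, with a score of 264 under siNC and 210 under siFOXA2 (percentiles 75 and 82, in lists of unequal length). The stronger SCG2 region, at 327, was lost, as were all 3 at CHGB, both at SYP and the one at ENO2. The siFOXA2 list had a region at 1 of 10 members, against 16.6% of all genes. At these loci the loss was close to that of the list.

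FOSL1 under siFOXA2 kept 0 of its 2 regions (interval to 65.8%), with a loss of 93.1% over the list, and had a new one at SCG2, at a score of 17. That was a region at 1 of 10 members, against 8.5% of all genes.

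In NCI-H660 cells 11 of 16 JUN regions were kept (68.8%, 44.4 to 85.8), and the loss was 52% over the list. All 4 promoter regions were kept. The CHGA promoter scored 124 (percentile 64.9) under siNC and 191 (96.6) under siFOXA2, and that of CHGB 141 (68.6) and 155 (95.6). The SCG3 promoter scored 24 (7.17) and 70 (83.9), and the internal start of NCAM1 269 (83.9) and 81 (88.2). The 5 lost were the shared SCG2 place (151), 2 at SCG3 (38 and 23), 1 at SYP (41) and the TTC12 region at NCAM1 (120). The last of these was the only lost one that overlapped FOXA2. The score was higher under siFOXA2 for 5 of the 11 kept regions and the percentile for 9, but the lists hold 18401 and 59452 regions. Among the 18401 highest-scoring regions of each list, 10 of the 11 remained and 5 had the higher percentile under siFOXA2. The promoter percentiles were then 88.9 at CHGA, 85.9 at CHGB, 48.1 at SCG3 and 61.8 at NCAM1, so that NCAM1 turned from higher to lower. Of the 3 JUN regions that overlapped FOXA2, 2 were kept, both at the CEACAM5 locus.

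Of the 44 NCI-H660 siFOXA2 regions 33 were new, against 85.2% of the list, and 12 of these were at NCAM1. The siFOXA2 list had a region at 10 of 10 members, against 83.5% of all genes, and at 6 of 10 promoters, against 38.5%. The promoters of SCG2 (score 181, percentile 96.4) and UCHL1 (136, 94.8) were new. Of the 33 new regions 18 lay in accessible chromatin of vehicle-treated cells (54.5%, 38 to 70.2), against 21.1% of new regions over the list. The list share covers the genome and is not matched for distance to genes. NCI-H660 ATAC regions numbered 68.8 per Mb at the loci and 32.3 over the genome. The 44 regions held 7 with an AP-1 motif and 3 with a CRE, the latter at the promoters of CHGA, SCG2 and LRRC23. With each pair cut to the same number of highest-scoring regions, NCI-H660 cells had 16 and 18, and PC3 cells had 0 and 1. The cut removes the change in list length by construction and leaves few PC3 regions. These counts therefore cannot decide whether the directions differ between the lines.

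**Figure D5:**
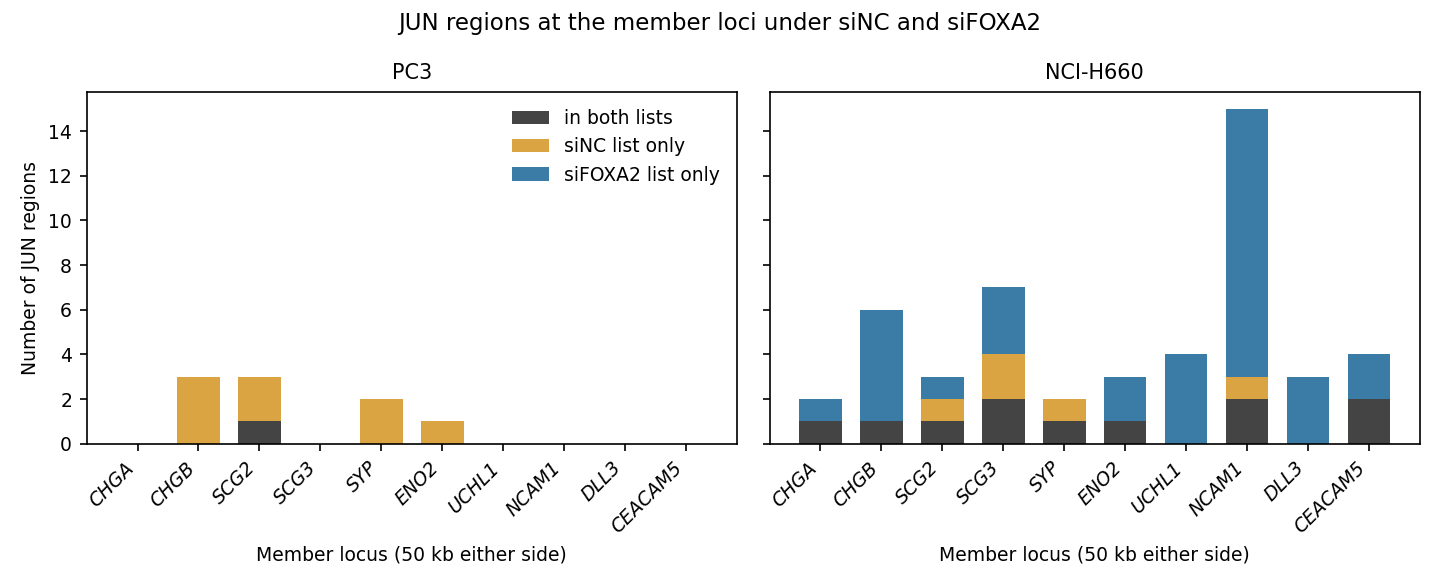
Number of JUN regions at each member locus that were in both the siNC and siFOXA2 lists, in the siNC list only, or in the siFOXA2 list only, for PC3 and NCI-H660 cells, 1 list a group. PC3 cells had 1 region in both lists, at SCG2, whereas NCI-H660 cells had 11 in both lists and 33 in the siFOXA2 list only.

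In the LNCaP derivatives JUN regions were more numerous at the loci than in LNCaP siNC cells. The lists as a whole were longer too. The LNCaP cells were transfected with siRNA, whereas the derivatives are labelled vehicle. No JUN list of LNCaP cells with an empty vector was among those used here. The lowest score was 30 in the LNCaP-FOXA2OE list and 23 in the LNCaP-FOXA2K265R list, and the LNCaP siNC list holds no scores. Whether FOXA2 accounts for the difference in number was not tested. LNCaP-FOXA2OE had 19 regions at 8 of 10 members, against 79.5% of all genes, and LNCaP-FOXA2K265R had 33 at 9 of 10, against 85%. LNCaP siFOXA1 had 0, against 8.64%. At promoters the counts were 2 of 10 in LNCaP-FOXA2OE (CHGB and UCHL1), against 26.7%, and 6 of 10 in LNCaP-FOXA2K265R (CHGB, SCG2, SCG3, SYP, UCHL1 and NCAM1), against 40.7%.

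The SCG2 promoter had the highest score of these, 300 in LNCaP-FOXA2K265R cells (percentile 97.7). The CHGB promoter scored 109 there and 84 in LNCaP-FOXA2OE cells, and that of UCHL1 scored 54 and 76. None of the 19 LNCaP-FOXA2OE regions and 2 of the 33 LNCaP-FOXA2K265R regions had an AP-1 motif. Of the 19 regions 12 overlapped one in LNCaP-FOXA2K265R cells (63.2%, 41 to 80.9), against 37% of the list, and 0 overlapped one in LNCaP siNC cells. Of the 19 and 33 regions 9 and 15 overlapped a JUN region of NCI-H660 siFOXA2 cells, against 24.9% and 29.3% of the lists. In these 3 lists the AP-1 motif shares were 2.38%, 4.07% and 4.98%, against 3.07%, 2.95% and 2.99% in windows 2 kb away. The CRE shares were above those 2 kb away. Whether the places that these lists share are bound by JUN was not tested.

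A further 22 genes of the secretory pathway, chosen by function, gave a wider view. They cover granule cargo and its processing, vesicle fusion, and peptide hormones. In NCI-H660 cells 10 of 22 had a FOXA2 region within 50 kb, against 37.6% of all genes, and 0 had one at the promoter, against 3.25%. In PC3 cells 14 of 22 had one, against 54.1%, and 1 promoter did, that of PAM, an enzyme that amidates peptides, against 4.96%. JUN siNC regions lay near 17 of 22 in NCI-H660 cells, against 66.2%, with 10 at promoters, against 22.7%. In PC3 cells they lay near 16, against 62.8%, with 2 at promoters, against 10.7%. LNCaP siNC cells had JUN regions near 5 of 22, against 13.4%. ATAC regions lay at 19 promoters in NCI-H660 cells, against 74.6%, and at 17 in PC3 cells, against 77.5%. The highest FOXA2 region of NCI-H660 cells at SST, which encodes the peptide hormone somatostatin, scored 540 (percentile 93.6), and that at SYT1, a calcium sensor of vesicles, scored 256 (76.2). SNAP25, a membrane fusion protein, had 194 (66.1), and SCGN, the calcium-binding protein secretagogin, had 184 (63.9).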

How the data were processed

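ChIP-seq and ATAC-seq region lists from PC3, NCI-H660 and LNCaP-derived cells were used as deposited in hg19 coordinates. The submitters' processing notes name BWA 0.7.17-r1188, SAMtools 1.9, FastQC 0.11.9 and MACS2 2.1.4, with no settings. The score is a whole number deposited by the authors for each region. It was read as 10 times −log10 of the MACS2 q-value from its lowest values, and this reading is an inference. The lists of LNCaP JUN siNC and LNCaP-FOXA2OE FOXA2 hold no scores. Read depth, the control library and the number of pooled replicates are not given in the sources used here. The antibody of the later PC3 FOXA2 and of the LNCaP-FOXA2K265R samples is not labelled, the cell line field of the latter says FOXA2OE and its title was followed, and the ATAC samples carry the ChIP protocol text.

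Loci, promoters and classes came from GENCODE release 44 mapped to GRCh37. Regions were intersected with Python 3.11.15, numpy 2.4.6 and pandas 2.3.3, with an overlap of 1 bp counted as shared, and sequences were read with pysam 0.24.0. Figures were drawn with matplotlib 3.10.9. Motifs were searched in 200 bases around each region's centre and again 2 kb away. Intervals are 95% Wilson intervals. The intersection code was tested on simulated regions. Groups followed the titles. With 1 list a group, no p-value was computed. The members, gene lists and alternatives were chosen with earlier results of these data known. The regions named by rule were the highest-scoring FOXA2 and JUN region of each line at each locus, those at member promoters, and the highest-scoring kept, lost and new region of each contrast. Others were named after their values were seen. Alternatives were windows of 10 and 100 kb, a score of at least 50, a reciprocal overlap of 50%, leaving out NCAM1, leaving out places in 17 or more lists (there were none at the loci), the later PC3 FOXA2 lists, and lists cut to the same number of regions, also for score percentiles.
One sequence and 1 gene that the rules above would name are not reported here.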

Additional observations from a re-analysis of the deposited data

Results flagged for a closer look

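JUN regions at the member loci under FOXA2 siRNA were marked for a closer look because the number went one way in PC3 cells and the other way in NCI-H660 cells. PC3 cells had 9 under siNC and 1 under siFOXA2, and NCI-H660 cells had 16 and 44. The difference was not tested, since each group has 1 list.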

How the results depend on the processing

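Of 174 values recomputed under an alternative, 133 stayed within 1.5 times the main count or within the interval of a share, and 41 moved. The 133 include 30 values without places in 17 or more lists, which could not move because no region at the loci was removed. Shares of few regions have wide intervals and could hardly move either, so the total is not a measure of stability. Leaving out NCAM1, a score of at least 50 and a reciprocal overlap of 50% moved none. NCAM1 was not left out of the lists cut to one length. The score limit was applied to the FOXA2 vehicle, JUN siNC and ATAC counts of PC3 and NCI-H660 cells and to the kept shares. It was not applied to the siFOXA2 counts, so the 44 JUN regions of NCI-H660 cells were not checked in this way. With a window of 10 kb, regions numbered 0 at 0 loci for PC3 FOXA2, 2 for NCI-H660 FOXA2, 3 for PC3 JUN, 10 for NCI-H660 JUN, 1 at 1 locus for LNCaP JUN, 36 for PC3 ATAC, 43 for NCI-H660 ATAC, 5 at 4 loci for LNCaP-FOXA2OE JUN, 13 for LNCaP-FOXA2K265R JUN, 13 at 5 loci for H3K27ac and 42 for H3K4me2. The kept shares were then 100% of 2 (NCI-H660 FOXA2), 0% of 3 (PC3 JUN) and 90% of 10 (NCI-H660 JUN). With 100 kb, they numbered 4 at 2 loci for PC3 FOXA2, 10 at 6 for NCI-H660 FOXA2, 210 for PC3 ATAC, 155 for NCI-H660 ATAC, 1 at 1 locus for LNCaP siFOXA1 JUN, 52 for LNCaP-FOXA2K265R JUN and 89 for H3K27ac. A wider or narrower window holds more or fewer bases by construction. The later PC3 FOXA2 lists gave 19 regions at 8 loci and 17 at 7, and the cause was not tested. With the same number of regions in PC3 and NCI-H660 lists, PC3 had 1 FOXA2 and 68 ATAC regions. With both lists of a contrast cut to one length, PC3 FOXA2 vehicle had 1 region, 100% kept under ORY-1001 and C12, PC3 JUN siNC had 0, PC3 FOSL1 siNC had 1 and NCI-H660 JUN siFOXA2 had 18. Lists cut by length were an alternative chosen after seeing the data, apart from the kept shares. No control region was left for the kept shares of PC3 FOXA2 and FOSL1 at 10 kb, nor for that of PC3 JUN in lists of one length. No paired analysis was possible because each group holds 1 list, and none could be left out.

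With 1 list a group, neither the spread between replicates nor the depth of a list is known, and an absent region may lie just under the score limit. Counts of 2 to 16 regions give wide intervals. A window assigns regions to a member by distance, and most hold other genes.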

Other observations

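The ENO2 window held a place listed in 8 of 22 lists that belongs to a neighbour. It lies at the promoter of LRRC23, 9.0 kb before the ENO2 5′ end, and carried JUN in NCI-H660 cells (score 714 under siNC and 246 under siFOXA2), in LNCaP-FOXA2K265R cells (score 162) and in LNCaP siNC cells, whose list has no scores. The promoter of ENO2 itself had no JUN region in any list.

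The SCG3 window of NCI-H660 cells held 9 ATAC regions, and the highest score among them, 1627 (percentile 95.3), was in an SCG3 intron 37.1 kb from the 5′ end, with H3K4me2 and neither FOXA2 nor JUN. The place was in those 2 lists alone.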
